A study of Mus musculus with 6 samples.

Results

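The genes described here are 8 genes of the peptide systems that serve the suprachiasmatic nucleus: the ligand genes Vip, Adcyap1, Nms, Grp and Prok2, and the receptor genes Vipr2, Adcyap1r1 and Prokr2. They were taken by gene symbol from the platform annotation of the array, each with the probeset of highest mean signal, and are 8 of 16663 genes tested. Each had 1 probeset that is annotated to that gene alone, and all 8 passed the signal filter described below. Hypothalamic RNA of female C57Bl/6J offspring aged 21 weeks, pooled from 18 mice in each group, was measured on 6 Affymetrix Mouse Gene 1.0 ST arrays. In the CGP group (3 arrays) the mothers had taken CGP 39551, a competitive antagonist of the N-methyl-D-aspartate receptor (NMDAR), at 5 mg/kg by mouth during pregnancy and up to weaning, so that the offspring were exposed through the dam and not as adults. The control group (CON, 3 arrays) carries the treatment label control, and the labels name no vehicle. The arrays in the published article are of male mice. The labels do not say whether the 3 arrays per group stand for separate pools, and the article, for its male arrays, describes RNA of all mice of a group pooled and put on arrays in triplicate, so that every error and p-value below reflects how far arrays differed, possibly for technical reasons alone, and not how far mice differed. Mice were kept under 12 h of light and 12 h of dark, and no label or method gives the hour at which tissue was taken.

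The suprachiasmatic nucleus is a small paired cell group above the optic chiasm that holds the master circadian clock of mammals. Its neurons talk to each other through peptides: VIP (Vip) from the retina-recipient core acts on the receptor VPAC2 (Vipr2) and keeps the clock cells in step, gastrin-releasing peptide (Grp) is another peptide of the core, and neuromedin S (Nms) marks a broad set of pacemaker neurons. Prokineticin 2 (Prok2) is a rhythmic output signal of the nucleus that acts on the receptor encoded by Prokr2. PACAP (Adcyap1) reaches the nucleus mainly from the retina, where it is released with glutamate by light-sensing ganglion cells. It is also made by neurons of the hypothalamus itself, above all in the ventromedial nucleus, and acts on PAC1 (Adcyap1r1) and, like VIP, on VPAC2. PAC1 and VPAC2 couple mainly to Gs and cyclic AMP, while the receptors for GRP, neuromedin S and prokineticin couple mainly to Gq and calcium. The peptides are not particular to the nucleus, since Vip and Grp are also genes of cortical neurons, and Vipr2 and Prokr2 are used in other brain regions such as the thalamus.

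Transcription of Vip is known to be raised through a cyclic AMP response element, and that of Prok2 through E-boxes bound by CLOCK and BMAL1. To show these control regions beside the array signals, with that of Adcyap1, whose receptor signals through cyclic AMP, the 150 bases just before the transcription start were read from RefSeq promoter sequences (GRCm38.p6), which held 7 of the 8 genes, with Grp as the exception. Sequences run 5′ to 3′ on the strand of the gene. Capitals mark TGACGTCT, a match close to the cyclic AMP response element, in Vip and Adcyap1, and the E-box CACGTG in Prok2.
Vip, chr10:5639068-5639217, plus strand: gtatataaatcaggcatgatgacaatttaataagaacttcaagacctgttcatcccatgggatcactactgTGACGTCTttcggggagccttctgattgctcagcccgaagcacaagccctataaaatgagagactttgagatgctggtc
Adcyap1, chr17:93198867-93199016, plus strand, the first of 2 starts: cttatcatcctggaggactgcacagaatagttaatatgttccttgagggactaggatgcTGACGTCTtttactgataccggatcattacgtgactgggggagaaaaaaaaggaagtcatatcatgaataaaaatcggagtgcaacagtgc
Prok2, chr6:99726393-99726542, minus strand: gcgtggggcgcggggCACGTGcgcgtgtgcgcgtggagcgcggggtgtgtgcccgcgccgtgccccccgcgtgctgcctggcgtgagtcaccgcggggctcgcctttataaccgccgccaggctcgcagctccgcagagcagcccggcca

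The half-site TGACG, searched on both strands, began 79 bases before the start of Vip and 91 bases before the Adcyap1 start shown. In this window it was absent at the other start of Adcyap1 and in all of the other 5 genes. In the 2 promoters that held it, the half-site continued to the same octamer TGACGTCT. The octamer was searched for after the shared letters had been seen and contains the half-site. Of 32851 RefSeq promoters, 13.3% held TGACG in the same 150 bases and 0.332% held the octamer. The E-box CACGTG began 135 bases before the start of Prok2, and 4.3% of the promoters held it. These are matches of letters and not measured binding sites, and the arrays measured no binding.

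Signals are log2 values after robust multi-array averaging (RMA), so that a difference of 1 is a doubling of signal. A probeset was tested when its mean over the 6 arrays was at least 6, and it was called when its adjusted p from limma was under 0.05. Differences are CGP minus CON throughout. Of 18239 tested probesets 51 were called, 28 higher and 23 lower in CGP (37 and 18 when each array was centred on its median). Correlations between arrays lay between 0.996 and 0.998. The tissue label was checked on 11 hypothalamic marker genes, whose CON means ran from 7.20 in Crh to 12.51 in Hcrt. Pmch stood at 11.95 and Kiss1 at 7.90, and Crh lay within the range of the adrenal genes that follow. Of 8 adrenal genes, checked because a label mentions adrenal glands, CON means ran from 6.04 in Dbh to 7.45 in Fdx1, with the steroid enzyme genes Cyp11a1 at 6.08, Cyp11b1 at 6.10 and Cyp11b2 at 7.03. The largest differences among them, of Star (0.12) and Pnmt (0.099), were not called.

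None of the 8 genes was called in CGP against CON in limma, where 0.280% of all tested probesets were called. By the means 4 genes were higher and 4 lower, and the median difference was 0.0028, against -0.002 over all tested genes. Without regard to sign the median was 0.073 for the 8 genes and 0.044 for all tested genes. The arrays of the groups did not overlap for 4 of the 8 genes: Vip, Adcyap1 and Grp were lower on every CGP array and Prokr2 was higher on every CGP array. Groups that do not overlap were found for 17.5% of all tested probesets, 9.95% with CGP lower and 7.59% with CGP higher. At an unadjusted p under 0.05, which 11.1% of tested probesets reached, stood 3 of the 8 genes, Vip, Grp and Prokr2. The 95% intervals of all 8 differences, taken one gene at a time, lay inside 1.4-fold either way (0.49 on the log2 scale). With 3 arrays in each group the smallest two-sided p of an exact permutation test is 0.1. Groups that do not overlap always give this value, so for the 4 genes without overlap it only restates that count.

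The largest difference was that of Vip, the peptide gene of the core neurons. Its signals were 7.51, 7.61 and 7.50 on the CON arrays and 7.43, 7.29 and 7.42 on the CGP arrays. The lowest CON array lay 0.071 above the highest CGP array, and the ranges within the groups, 0.11 and 0.14, were wider than that gap. The means were 7.54 ± 0.061 in CON against 7.38 ± 0.078 in CGP (SD, n = 3), a difference of -0.16 (standard error 0.052, 95% interval -0.28 to -0.040, adjusted p = 0.346 from limma). In linear terms this is a signal 1.12-fold lower, and with this spread Vip would have needed 1.28-fold to be called. Vip was dim, with a mean of 7.46 where the array medians ran from 8.19 to 8.21. The means of Prok2 (7.29), Nms (7.79) and Vipr2 (8.01) also lay below those medians. RMA compresses changes of dim probesets, so the fold of Vip is one of signal and not of RNA. How much of these signals was background was not tested. In bulk tissue, fewer VIP cells and less Vip RNA per cell cannot be told apart, which holds for every gene below.

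Grp, also a peptide gene of the core, showed the same order of the groups. The CON arrays stood at 9.34, 9.26 and 9.25 and the CGP arrays at 9.15, 9.17 and 9.20. All CGP arrays were below all CON arrays, by 0.048 at the nearest, and CON replicate 1 was the highest of the 6. The difference was -0.11 (standard error 0.040, 95% interval -0.20 to -0.019, adjusted p = 0.399 from limma).

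Adcyap1, the PACAP gene, was the most evenly measured of the peptide genes. It gave 10.37, 10.36 and 10.35 on the CON arrays and 10.30, 10.29 and 10.29 on the CGP arrays. The gap between the groups, 0.050, was wider than the range within CON (0.012) or CGP (0.013). The difference of -0.065 was nevertheless small, 1.05-fold lower, with a 95% interval of -0.14 to 0.010 and an adjusted p of 0.511 in limma, whose standard error of 0.033 borrows from the spread of all probesets. With the spread of Adcyap1 alone the standard error was 0.0054, and the same fit without that borrowing gave an adjusted p of 0.157.

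The other 2 peptide genes had groups that overlapped. For Nms, the neuromedin S gene, the CON arrays were at 7.82, 7.69 and 7.75 and the CGP arrays at 7.94, 7.82 and 7.74, so that CGP replicate 1 was highest and CGP replicate 3 lay within the CON range. Its difference was 0.081 (standard error 0.059, 95% interval -0.055 to 0.22, adjusted p = 0.646 from limma). Prok2, the output signal, was at 7.37, 7.18 and 7.30 in CON and at 7.29, 7.28 and 7.32 in CGP. All 3 CGP arrays lay within the CON range, which CON replicate 2 set at its low end. The difference of Prok2 was 0.012 (95% interval -0.11 to 0.13, adjusted p = 0.954 from limma). A change in signal of more than 1.10-fold either way thus lay outside the interval. Prok2 was the dimmest of the 8 genes, with a mean of 7.29, and RMA compresses changes of dim probesets. The limit is therefore one on signal and not on RNA.

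**Figure D1:**
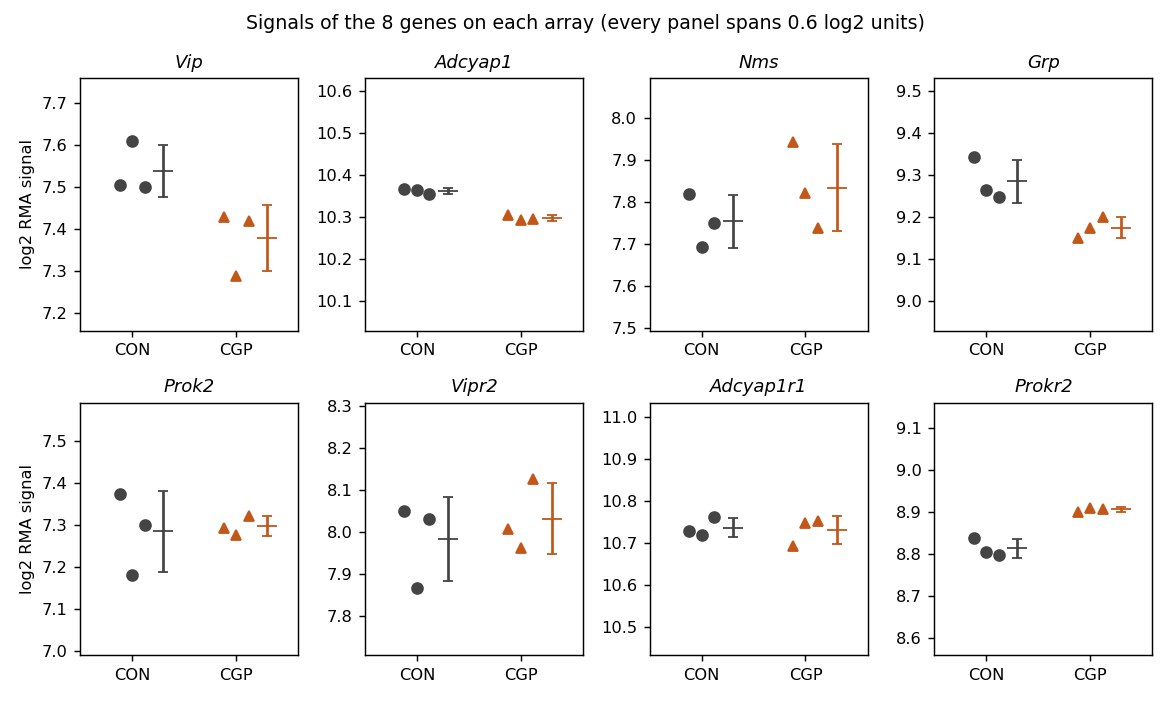
Signals of the 8 genes by array. Each panel is a gene, the vertical axis is the log2 RMA signal over a span of 0.6, circles are CON arrays and triangles CGP arrays in replicate order, and the tick with bars beside them is the mean and SD of 3 arrays. The groups lie apart for Vip, Adcyap1, Grp (CGP lower) and Prokr2 (CGP higher), and the distance is widest for Vip, at 7.54 in CON and 7.38 in CGP.

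Among the receptors, Prokr2 was the gene whose groups lay apart. Prokr2, the receptor gene for prokineticin 2, was at 8.84, 8.81 and 8.80 on the CON arrays and at 8.90, 8.91 and 8.91 on the CGP arrays. The CGP arrays spanned only 0.010 and the CON arrays 0.042, with a gap of 0.061 between them. The difference of 0.092 (standard error 0.034, 95% interval 0.015 to 0.17, adjusted p = 0.403 from limma) is 1.07-fold.

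Vipr2, the gene of VPAC2, had the largest pooled within-group SD of the 8 genes, 0.093. The CON arrays were at 8.05, 7.87 and 8.03 and the CGP arrays at 8.01, 7.96 and 8.13. CGP replicate 3 was the highest and CON replicate 2 the lowest, and among the other 4 arrays both CON arrays were above both CGP arrays. Its difference was 0.049 (standard error 0.063, 95% interval -0.095 to 0.19, adjusted p = 0.807 from limma). Adcyap1r1, the gene of PAC1, gave 10.73, 10.72 and 10.76 in CON and 10.69, 10.75 and 10.75 in CGP, and the groups overlapped. The interval of its difference of -0.0063 reached less far from 0 than that of any other of the 8 genes, with 95% limits of -0.090 to 0.078 (adjusted p = 0.966 from limma), or at most 1.06-fold either way.

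**Figure D2:**
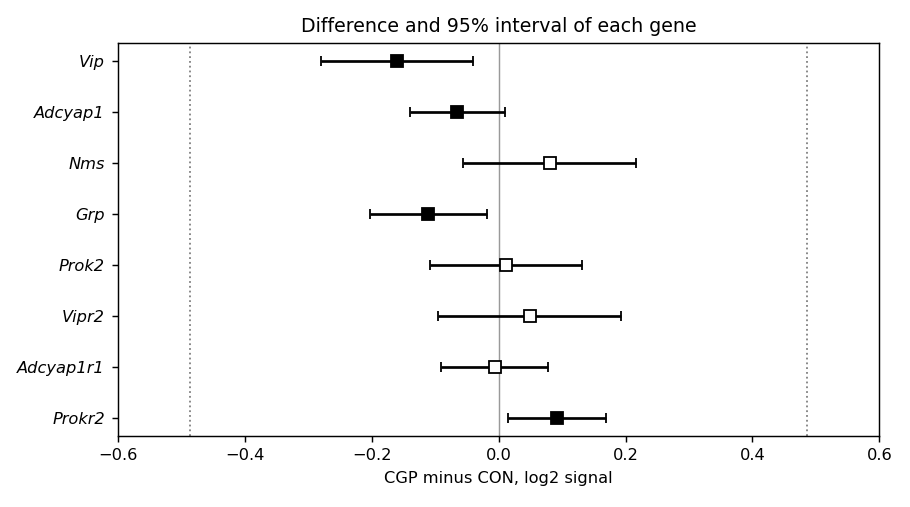
Difference of each gene between the groups. The horizontal axis is CGP minus CON in log2 signal, squares are the differences over 3 arrays a group, bars their 95% intervals from limma (not adjusted for the number of genes), filled squares mark genes whose groups did not overlap, and dotted lines mark 1.4-fold either way. The intervals of Vip, Grp and Prokr2 leave out 0, all 8 lie between the dotted lines, and none of the 8 adjusted p values was under 0.05.

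Set side by side as ligand and receptor, no pair held a called gene on either side. For the VIP system, Vip had a difference of -0.16, Vipr2 of 0.049 and Vipr1, the gene of VPAC1, of 0.023 (7.33 ± 0.018 in CON, 7.35 ± 0.12 in CGP; SD, n = 3). For PACAP the differences were -0.065 in Adcyap1 and -0.0063 in Adcyap1r1. For GRP they were -0.11 in Grp and -0.086 in its receptor gene Grpr (7.63 ± 0.015 and 7.54 ± 0.083, SD, n = 3 arrays each, adjusted p = 0.547 from limma), whose groups overlapped. For neuromedin S they were 0.081 in Nms and -0.025 in Nmur2, its main receptor gene in the brain. For prokineticin 2 they were 0.012 in Prok2, 0.092 in Prokr2 and -0.057 in Prokr1.

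Of 21 further ligand and receptor genes of the same families, 20 were measured by a probeset of their own and none was called, with a median difference of -0.011 and 9 higher and 11 lower. At an unadjusted p under 0.05 in limma, which 11.1% of all tested probesets reached, there were 2. Ghrhr, the receptor gene for growth hormone-releasing hormone, which belongs to the VIP receptor family and is also a gene of the anterior pituitary, measured 8.43 ± 0.090 in CON against 8.72 ± 0.065 in CGP (SD, n = 3). This difference of 0.28 was not called (standard error 0.056, adjusted p = 0.128 from limma), and neither was that of 0.18 for Nmbr, the neuromedin B receptor gene related to Grpr (standard error 0.034, adjusted p = 0.118 from limma). In both genes the CGP arrays were all higher than the CON arrays.

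Other genes known for the suprachiasmatic nucleus were set beside the peptides. Of 13 such genes, all tested, none was called, 9 were higher and 4 lower, and the median difference was 0.055. The groups did not overlap for 7 of them, where 17.5% of all tested probesets did not overlap. The mean signal over the 13 genes was 9.84 to 9.85 on the CON arrays and 9.87 to 9.91 on the CGP arrays. In bulk tissue neither this mean nor the counts measure cells of the nucleus alone, since genes such as Avp and Rora are also used elsewhere. The genes did not move one way: Six6 and Lhx1, transcription factors of the nucleus, had differences of -0.082 and -0.15 with every CGP array lower, while Rora (0.24, adjusted p = 0.0608 from limma) and Cck (0.15, adjusted p = 0.288 from limma) had every CGP array higher. Rora, a nuclear receptor gene of the clock, is also strongly used in the thalamus and stands in the thalamus list below. Avp, the peptide gene of the shell neurons and of the magnocellular nuclei, measured 10.98 ± 0.045 in CON against 10.97 ± 0.022 in CGP (SD, n = 3), and Syt10, a synaptotagmin gene enriched in the nucleus, differed by 0.0048.

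Peptide genes of the nucleus cycle over the day, so clock genes were set beside them. Of 17 clock and clock output genes 16 were tested and none was called, with a median difference of 0.025 and 10 higher and 6 lower. Those with the largest differences were Cry1 (0.14, adjusted p = 0.580 from limma), whose groups overlapped, and Per1 (0.12, standard error 0.037, adjusted p = 0.323 from limma), with no overlap of the groups. Dbp and Nr1d1, outputs with a strong daily rhythm, differed by 0.020 and 0.015 with standard errors of 0.037 and 0.039. These signals are of bulk tissue and not of the nucleus alone. Whether the hour of sampling differed between the pools was not tested.

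The steps below the receptors showed no called gene. Among 20 tested genes of the Gs, cyclic AMP and PKA pathway, used by VPAC2 and PAC1, the median was -0.0091, with 9 higher and 11 lower. The calcium-stimulated adenylyl cyclase gene Adcy1 was the farthest from 0, at 9.40 ± 0.021 in CON against 9.58 ± 0.014 in CGP (SD, n = 3), a difference of 0.18 (adjusted p = 0.118 from limma), followed by the PKA subunit gene Prkar2b at -0.090. Among 10 tested genes of the Gq and calcium pathway the median was -0.024, and Plcb2 (0.10) and Plcb1 (-0.079), both phospholipase C genes, differed most. Of 13 tested genes that process, store or break down peptides, the median was -0.041, with 4 higher and 9 lower. The peptidase genes Mme (-0.17, adjusted p = 0.288 from limma) and Dpp4 (-0.12), whose enzymes cleave peptides at the cell surface, had the largest differences, and the prohormone convertase gene Pcsk1 was at -0.10.

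Adcyap1 was also set beside genes of the ventromedial nucleus, where PACAP neurons are abundant. Of 5 such genes, Adcyap1 included, none was called. The transcription factor genes Nr5a1 and Fezf1, which define that nucleus, had differences of -0.050 and -0.054, next to -0.065 for Adcyap1, while Nptx2 was at 0.16 (adjusted p = 0.378 from limma). The arrays did not overlap for Nr5a1 and did for Fezf1. Of 11 tested hypothalamic markers none was called, 4 were higher and 7 lower, and Nkx2-1 (-0.14) and Ghrh (-0.10) were farthest from 0. The mean over the list was 10.29 to 10.36 in CON and 10.27 to 10.31 in CGP.

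Among lists of other brain regions and of the pituitary, those of thalamus and anterior pituitary held called genes. The levels of these lists stand beside every value above. The article describes, for its male mice, a block cut in front at the optic chiasm, above which the suprachiasmatic nucleus lies, and behind at the mammillary bodies, and does not describe the dissection of the females. Of 12 thalamus genes 3 were called higher, Grid2ip by 0.39, Ptpn3 by 0.36 and Prkcd by 0.27 (adjusted p = 0.0318, 0.0249 and 0.0467 from limma). None was called lower, 10 were higher and 2 lower by the means, and the median was 0.20. The mean over the list was 9.997 to 10.05 on the CON arrays and 10.17 to 10.20 on the CGP arrays. The groups did not overlap for 10 of the 12 genes, against 17.5% of all tested probesets. Cd59a (-0.26) was among the 10, with CGP lower. Of 10 habenula genes none was called, 9 were higher and the median was 0.17, with a list mean of 8.85 to 8.90 in CON and 9.01 to 9.07 in CGP; the nicotinic receptor subunit genes Chrnb4 (0.37) and Chrna3 (0.22) differed most. Of 9 anterior pituitary genes 3 were called higher, Pomc by 1.56, Lhb by 0.46 and Gh by 0.39. By the means 8 were higher and 1 lower, and Prl (0.10), Cga (0.044) and Tshb (-0.037) were not called. The list mean was 9.62 to 9.67 in CON and 9.96 to 10.01 in CGP. It includes Pomc, which the article, for its male mice, treats as a gene of the hypothalamus. Of 8 genes of cortex and hippocampus, where Vip and Grp are also used, none was called and the list mean was 9.30 to 9.33 in CON and 9.32 to 9.33 in CGP, with Rasgrf2 (-0.12) and Camk2a (0.087) farthest from 0. With any 1 array left out, 1 to 2 genes of all lists together were called, against 6 with all arrays. The part of these tissues in the differences of Prokr2, Vipr2, Vip and Grp was not tested.

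**Figure D3:**
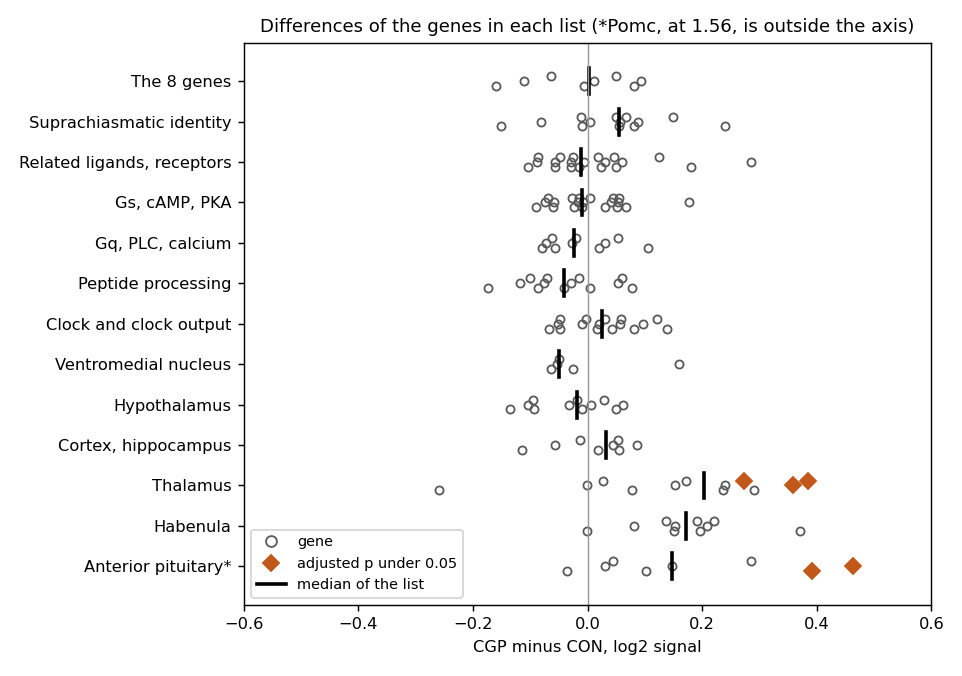
Differences of the 8 genes and of the listed genes. The horizontal axis is CGP minus CON in log2 signal, each circle is a tested gene, diamonds are genes with an adjusted p under 0.05 in limma and black lines are list medians. The 8 genes spread around a median of 0.0028 between Vip at -0.16 and Prokr2 at 0.092, while thalamus, habenula and anterior pituitary genes lie mostly above 0, with Pomc, at 1.56, outside the axis.

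The genes whose signal followed that of Vip most closely over the 6 arrays were Rasgrf2, B2m and Rnf2, with Pearson correlations of 0.99 for each. Rasgrf2 encodes an exchange factor for Ras, B2m the light chain of MHC class I and Rnf2 a Polycomb ubiquitin ligase. Their differences were -0.12, -0.13 and -0.095, and none was called. The correlation was taken over both groups together, so lower means in CGP follow from the choice of these genes. Rasgrf2 also stands in the cortex list above. Of 16662 genes compared, 91 correlated with Vip above 0.95 over these 6 arrays.

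**Figure D4:**
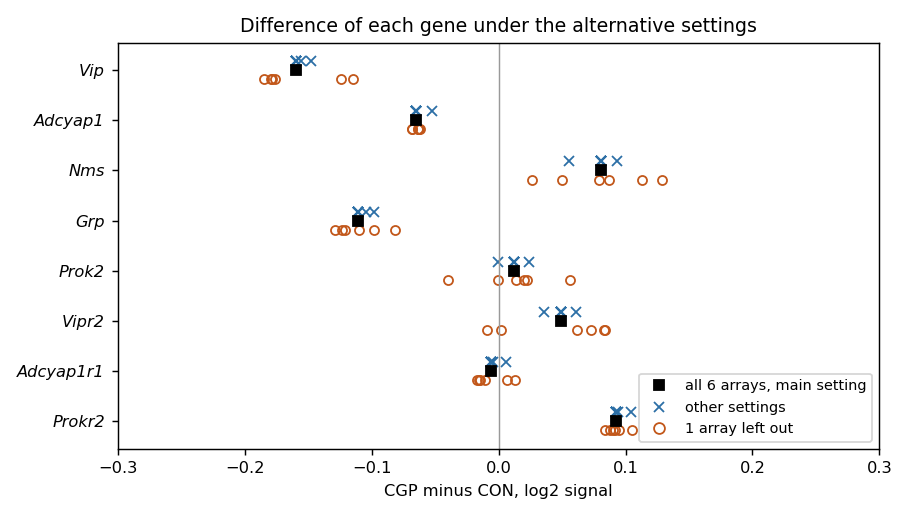
Differences of the 8 genes under the alternative settings. The horizontal axis is CGP minus CON in log2 signal, squares are the values with all arrays, crosses are the other settings of filter, scaling, model and block, and open circles are the fits with 1 array left out. Vip stayed between -0.18 and -0.11, Grp between -0.13 and -0.081, Adcyap1 between -0.069 and -0.052, Prokr2 between 0.084 and 0.11 and Nms between 0.026 and 0.13, while Prok2, Vipr2 and Adcyap1r1 took values on both sides of 0.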

How the data were processed

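The authors deposited 1 table of log2 signals for 6 arrays and 28471 probesets. Per the labels they used RMA and Partek, with no version given. RMA corrects the background, applies quantile normalization and summarises the log2 probe values by median polish. It makes arrays comparable and compresses changes of dim probesets. Gene names come from the platform annotation in GEO, which gave 1 gene for 18690, several for 1163 and none for 8618. The values were used as deposited. Probesets with 1 gene and a mean of at least 6 (18239 probesets) entered limma 3.58.1 under R 4.3.3 (lmFit, eBayes, no covariate, all 6 arrays), and p-values were adjusted by Benjamini-Hochberg over all of them. The filter, and 1.4-fold as an alternative, follow the article's methods, which describe male arrays. The fit was tested on simulated data.

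The 8 genes and the 13 gene lists were chosen with earlier results of these data known, and so support nothing by themselves. Named from each list were its called genes or otherwise the 2 with the largest difference. Receptors that pair with the peptides and a few other genes were added after their values were seen. For the gene with the largest absolute t, Vip, the 3 genes most correlated with it were named. The 15 alternatives covered filter, scaling, moderation, array weights, replicate block, fold threshold and each array left out. Averaging several probesets of a gene was not run, since each of the 8 genes has 1. No per-sample column was left unused. Replicate numbers were not taken as pairs (correlations of same-numbered deviations 0.078, -0.18 and 0.11).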

Additional observations from a re-analysis of the deposited data

How the results depend on the processing

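None of the 8 genes was called in any of the 15 alternatives. Vip, Adcyap1, Grp, Nms and Prokr2 kept their sign in all 15, with adjusted p values from limma or ANOVA no lower than 0.157 (Adcyap1 with ordinary ANOVA). The sign turned for 3 genes near 0: Prok2 was -0.0002 with array weights and -0.040 to 0.056 with 1 array left out, Vipr2 -0.0088 to 0.084 with 1 array left out, below 0 without CON replicate 2, and Adcyap1r1 0.0060 with centred arrays and -0.017 to 0.013 with 1 array left out. Over the whole table the 51 called probesets became 81 with a filter at 7, 5 with all probesets of the table, 249 with a trended and robust eBayes, 77 with array weights, 9 with 1.4-fold required, 6 with ordinary ANOVA and 6 to 10 with any 1 array left out. The 6 called genes of the lists became 1 with all probesets, 18 with the trended and robust eBayes, 1 with ordinary ANOVA, 1 with 1.4-fold required and 1 to 2 with any 1 array left out. With the replicate number as a block, 6 probesets and 1 listed gene were called, and none of the 8. ANOVA was run with no moderated variance, and fits with an array left out rest on 5 arrays. Other causes were not tested. The table holds no detection p and no background, and 3 arrays a group limit the precision.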
